A study of Mus musculus with 21 samples.

Results

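The genes described here encode 10 proteins that set, copy or remove DNA methylation, or that write the Polycomb mark on histone H3: Dnmt1, Uhrf1, Hells, Dnmt3a, Dnmt3b, Tet1, Tet2, Tet3, Ezh1 and Ezh2. They were found by gene name on a mouse Agilent expression array, and all 10 were among its 37074 names. Mouse hepatocytes and CLiPs, the chemically induced liver progenitors grown from them, were profiled on 21 arrays in 7 groups of 3. The fresh group was hepatocytes of female C57BL/6 mice before culture. The P1 groups were CLiPs at passage 1, taken at day 0, after 8 days of hepatic induction with oncostatin M and dexamethasone (P1 induced), or after 8 days without these agents (P1 uninduced). The late groups were CLiPs at passage 11 or 12, taken at the same 3 stages and called late day 0, late induced and late uninduced. All cells came from the same sex and strain, and no group carried an engineered allele per the labels. The labels give neither the age nor the number of animals, nor whether replicates were separate cultures, so the tests measure the spread between these samples, which may be technical.

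DNA methylation is copied after replication by Dnmt1, which Uhrf1 brings to the newly made, half-methylated sites and for which the chromatin remodeller Hells opens chromatin. Dnmt3a and Dnmt3b methylate sites that were unmethylated, and Tet1, Tet2 and Tet3 oxidise methylated cytosine, the first step of its removal. Ezh1 and Ezh2 are the alternative catalytic subunits of Polycomb repressive complex PRC2, which methylates lysine 27 of histone H3. Ezh2 is the form typical of dividing cells and Ezh1 that of resting cells, and the adult liver is a largely resting tissue.

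A level below is the log2 signal of a gene's brightest probe relative to the array's 75th percentile, and a difference is one mean level minus another. Levels of different genes come from different probes and were not set against each other. A gene was called when the adjusted p of limma's moderated test was under 0.05 and the difference was at least 2-fold. The 75th percentile of signal was 291 to 332 on the fresh arrays, 466 to 789 on the P1 arrays and 881 to 1241 on the late arrays. Between 46.1% and 60.5% of probes were well above background, and no probe was saturated. The late arrays were read on another scanner with another version of the scanner software, so passage and scanner cannot be told apart between late and P1. One fresh array, replicate 3, also carried a passage label of P1 and was kept as fresh by its title. Of the late arrays, replicate 3 was passage 11 and the others passage 12.

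A few comparisons carried most of the calls among the 10 genes. In P1 CLiPs at day 0 against fresh hepatocytes, 4 genes rose (Uhrf1, Hells, Ezh2 and Dnmt1) and 1 fell (Tet1), where 25.4% of 20631 tested genes were called higher and 25.2% lower. Uhrf1 and Hells entered this test only through CLiP groups, where they were high, so the count of 4 is partly set by the filter. Over 8 days without induction, those same 4 genes fell in P1 CLiPs and no gene rose, where 6.28% of all genes were called higher and 4.86% lower. They also fell over the same 8 days in late CLiPs, 4 lower and 0 higher, against 8.19% and 6.37% of 21342 genes. Induction at P1 left 2 genes lower than in uninduced cells (Uhrf1 and Hells) and 0 higher, against 9.68% of genes higher and 9.02% lower. Each of these counts of 0 is from limma with both thresholds applied. At an unadjusted p under 0.05, with no threshold of size, 8, 6, 8 and 7 genes of the 10 differed in P1 day 0 against fresh, P1 uninduced against day 0, P1 induced against uninduced and late uninduced against day 0.

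The other comparisons held fewer calls or were sums of those above. Late induced against late uninduced cells gave 1 gene lower (Uhrf1), against 2.94% of genes higher and 3.06% lower. P1 induced cells against fresh hepatocytes gave 2 higher (Uhrf1 and Hells) and 2 lower (Tet1 and Dnmt3b), against 20.3% and 18.8%. Of these, Hells was well above background on no array of either group, Dnmt3b lost its call without fresh replicate 2 or 3 or any 1 P1 induced array, and the count was 2 when only those groups were fitted. P1 uninduced cells against fresh gave 5 called genes, 4 higher and 1 lower, where 49% of genes were called in either direction. P1 induced cells against P1 day 0 gave 4 lower, where 23% were called in either direction, and late induced against late day 0 gave 4 lower, where 20.7% were called. Scaling arrays to their median in place of the 75th percentile moved the split of all called genes by over 10 percentage points in 4 comparisons. It went from 1295 higher and 1003 lower to 1003 and 1353 for P1 uninduced against day 0, and from 4192 and 3876 to 3475 and 4949 for P1 induced against fresh. It went from 2569 and 2168 to 2060 and 2713 for P1 induced against day 0, and from 968 and 2036 to 1511 and 1549 for late against P1 day 0. The direction of every called member in these 4 comparisons was the same under that scaling.

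**Figure D1:**
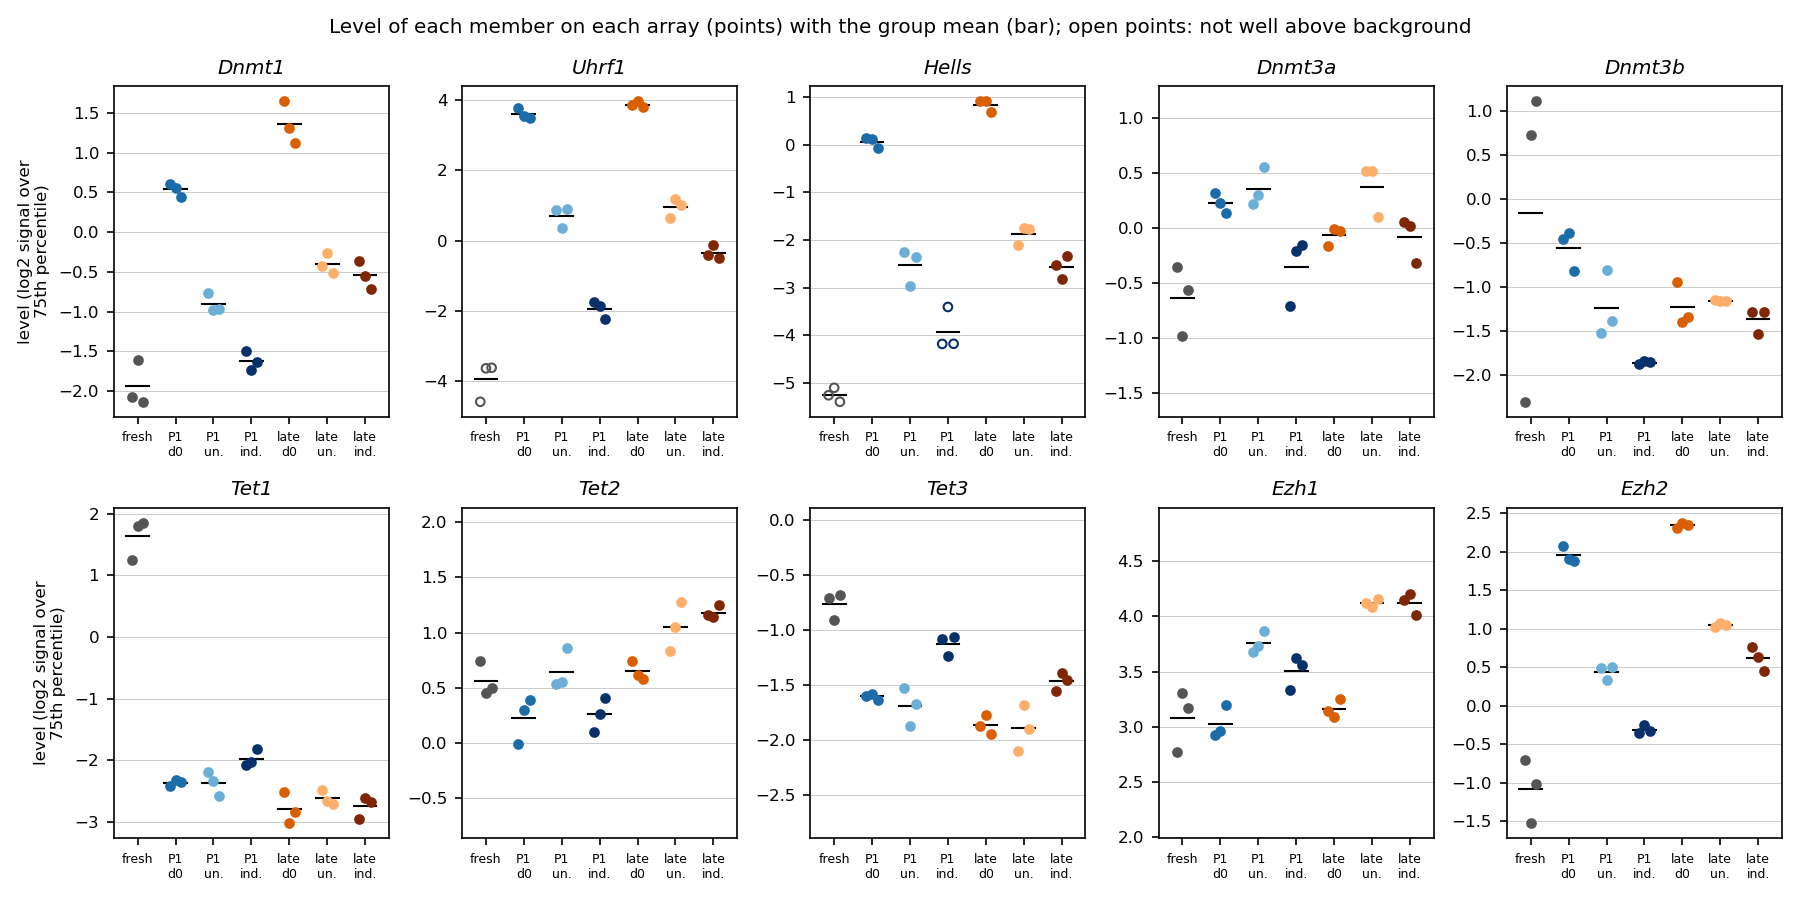
Level of each of the 10 genes on each of the 21 arrays (points) with the group mean (bar), as log2 signal over the array's 75th percentile, 1 panel and 1 vertical scale per gene. d0 is day 0, un. is uninduced day 8 and ind. is induced day 8; open points mark groups in which the probe was well above background on no array. Dnmt1, Uhrf1, Hells and Ezh2 are high on all 6 day 0 arrays, and the Tet1 probe is high on the 3 fresh arrays only.

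Uhrf1 is the reader of half-methylated DNA that recruits Dnmt1. Its levels were -4.58, -3.63 and -3.62 on the fresh arrays, where the probe was not well above background, and 3.76, 3.54 and 3.48 in P1 CLiPs at day 0. They were 0.87, 0.35 and 0.89 in P1 uninduced cells and -1.73, -1.86 and -2.22 in P1 induced cells. The 4 groups stand in separate ranges, with day 0 on top and fresh at the bottom. The late levels were 3.85, 3.97 and 3.79 at day 0, 0.65, 1.19 and 1.02 in uninduced cells and -0.42, -0.12 and -0.49 in induced cells. The late groups keep the same order without overlap, and late and P1 uninduced arrays overlap each other.

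Because the fresh level of Uhrf1 has only a bound, its rise to P1 day 0 is given as at least 118-fold (adjusted p = 7.1e-10). Such bounds set the bright group's mean against the dim group's mean of, per array, the higher of the probe's own signal and the lowest signal well above background. Uhrf1 entered the tests against fresh only through CLiP groups, where it was high, so their p-values are not independent of the filter. Uhrf1 then fell 7.40-fold over 8 uninduced days at P1 (log2 difference -2.89, SE 0.26, adjusted p = 2.5e-05) and 7.53-fold in late CLiPs (-2.91, SE 0.16, adjusted p = 7.3e-06). Induction left it a further 6.24-fold lower than in uninduced cells at P1 (-2.64, adjusted p = 1.5e-05) and 2.46-fold lower in late CLiPs (-1.30, adjusted p = 0.0014). Even so, P1 induced cells stayed at least 2.55-fold above fresh hepatocytes (adjusted p = 4.2e-05); under the normexp background and the mean of its probes, that difference was 0.50 and 0.89 on the log2 scale and was not called. In bulk samples, fewer cells expressing a gene and less of its RNA per cell cannot be told apart.

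P1 arrays lay on a pair of slides that both held all 3 P1 groups, so the changes could be read within each slide. The uninduced fall of Uhrf1 was -3.04 on slide 4 and -2.59 on slide 5, and -2.89 with slide as a fixed block. Its induced minus uninduced difference was -2.35 and -2.93 on these slides, and -2.62 with the block. On the late slide that held both groups (slide 6), induced minus uninduced was -1.23. Each of these values has the direction of the value over all arrays.

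A second Uhrf1 probe, lying across chr17:56451668-56452321 (mm9, plus strand), was well above background only at day 0, with means of -2.27 ± 0.28 (SD, n = 3) at P1 and -2.35 ± 0.21 (SD, n = 3) in late CLiPs. It stood between -5.87 and -5.48 in the 5 other groups, where it was not well above background, so it gives no value for induction and no exact size for the uninduced fall. Its 60 bases, shown because they mark where day 0 was separately measured, and the 250 bases before the first of 2 RefSeq starts of the gene (GRCm38.p6, chr17:56303087-56303336, plus strand) were:

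Uhrf1 second probe: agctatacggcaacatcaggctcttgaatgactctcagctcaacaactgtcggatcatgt

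Uhrf1 promoter window, first start: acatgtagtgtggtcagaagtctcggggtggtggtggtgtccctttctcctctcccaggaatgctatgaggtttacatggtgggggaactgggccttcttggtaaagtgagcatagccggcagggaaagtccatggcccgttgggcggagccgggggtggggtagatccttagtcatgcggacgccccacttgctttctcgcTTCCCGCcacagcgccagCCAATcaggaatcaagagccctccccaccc

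Capitals in this and the following windows mark letters searched on both strands: TTCCCGC or TTGGCGC (the E2F site), TTTGAA or TTCGAA (the CHR element), and CCAAT. Of 32851 RefSeq windows of the same length, 5.62% held the first, 17.1% the CHR letters and 33.8% CCAAT. Uhrf1 had an E2F match 48 bases and a CCAAT match 30 bases before its first start, with no overlap between them. The window of the second start (chr17:56304063-56304312) held 2 CCAAT matches, no E2F or CHR match, and 30 CpG pairs. A match is a description of the letters, not of binding.

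Hells, the helicase needed for methylation of packed chromatin, followed the same order. Its levels were -5.26, -5.10 and -5.40 on the fresh arrays and 0.14, 0.11 and -0.08 at P1 day 0. They were -2.25, -2.98 and -2.36 in P1 uninduced cells and -4.18, -3.41 and -4.18 in P1 induced cells, and the probe was not well above background in the fresh and P1 induced groups. Day 0 stood above both day 8 groups with no overlap. Late levels were 0.91, 0.91 and 0.69 at day 0, -2.11, -1.74 and -1.77 in uninduced cells and -2.53, -2.83 and -2.35 in induced cells, all measured above background. Induced arrays were the lowest of the late groups.

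Hells rose at least 10.2-fold from fresh hepatocytes to P1 day 0 (adjusted p = 4.8e-09) and fell 5.99-fold over 8 uninduced days (-2.58, SE 0.23, adjusted p = 2.6e-05), with -2.74 on slide 4 and -2.28 on slide 5. Like Uhrf1, Hells entered the tests against fresh only through CLiP groups, where it was high. The late fall was 6.56-fold (-2.71, SE 0.15, adjusted p = 9.7e-06). Induced P1 cells were at least 1.87-fold below uninduced cells (-1.40 as fitted, adjusted p = 7e-04, -1.57 and -1.44 within slides, -0.46 and not called under normexp background). In late CLiPs the induced minus uninduced difference of Hells was -0.69 (adjusted p = 0.018), under 2-fold. P1 induced and fresh cells were both below background, so their fitted difference of 1.33 (adjusted p = 0.00042) gives no fold; it was -0.10 under normexp background. Its single probe and the window before its start (chr19:38930740-38930989, GRCm38.p6, plus strand), with an E2F match 61 bases before the start, were:

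Hells probe: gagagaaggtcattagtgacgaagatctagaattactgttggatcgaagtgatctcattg

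Hells promoter window: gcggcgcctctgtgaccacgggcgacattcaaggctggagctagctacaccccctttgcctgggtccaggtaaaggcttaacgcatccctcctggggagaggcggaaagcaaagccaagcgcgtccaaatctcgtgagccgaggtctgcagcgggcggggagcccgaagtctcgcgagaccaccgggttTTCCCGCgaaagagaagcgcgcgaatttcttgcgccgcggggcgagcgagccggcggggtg

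Dnmt1, the maintenance methyltransferase itself, moved the same way over a narrower range. Its levels were -2.08, -1.61 and -2.13 on the fresh arrays, 0.61, 0.56 and 0.45 at P1 day 0, -0.77, -0.98 and -0.97 in P1 uninduced cells and -1.50, -1.74 and -1.63 in P1 induced cells. P1 induced arrays overlapped the fresh ones, and the other groups stood apart. Late levels were 1.65, 1.31 and 1.11 at day 0, -0.43, -0.26 and -0.52 in uninduced cells and -0.37, -0.55 and -0.72 in induced cells, the last 2 groups overlapping.

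Dnmt1 rose 5.57-fold from fresh to P1 day 0 (2.48, SE 0.14, adjusted p = 3.9e-08) and fell 2.72-fold over 8 uninduced days (-1.44, SE 0.14, adjusted p = 4e-05), by -1.45 and -1.42 within slides. In late CLiPs it fell 3.39-fold (-1.76, SE 0.15, adjusted p = 8.3e-05). Induced minus uninduced was -0.72 at P1 (adjusted p = 0.002), under 2-fold, and -0.14 in late CLiPs (95% interval -0.50 to 0.22, adjusted p = 0.57). P1 uninduced cells were still 2.05-fold above fresh hepatocytes (adjusted p = 5.2e-05), a call lost under quantile normalization (0.97), median scaling (0.82) and normexp background (0.56) and without fresh replicate 1 (0.97), fresh replicate 3 (0.94) or P1 uninduced replicate 1 (0.96). P1 induced and fresh cells differed by 0.32 (adjusted p = 0.065). The single Dnmt1 probe lies across chr9:20711973-20712341 (mm9, minus strand), a span longer than the probe:

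Dnmt1 probe: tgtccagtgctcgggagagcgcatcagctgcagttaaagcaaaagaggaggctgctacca

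Of the 3 RefSeq windows of Dnmt1, window 1 held CCAAT 4 times and the CHR letters once, window 2 no match, and window 3 only CCAAT, 3 times. None held an E2F match, and they held 2, 7 and 26 CpG pairs in that order.

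Ezh2, the PRC2 methyltransferase of dividing cells, moved with the maintenance genes. Its levels were -0.71, -1.53 and -1.02 on the fresh arrays, 2.08, 1.91 and 1.88 at P1 day 0, 0.49, 0.34 and 0.50 in P1 uninduced cells and -0.35, -0.25 and -0.32 in P1 induced cells. No pair of these groups overlapped. The levels in late CLiPs were 2.31, 2.38 and 2.35 at day 0, 1.02, 1.07 and 1.05 in uninduced cells and 0.76, 0.63 and 0.45 in induced cells, again in separate ranges.

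Ezh2 rose 8.21-fold from fresh to P1 day 0 (3.04, SE 0.17, adjusted p = 3.6e-08) and fell 2.85-fold over 8 uninduced days (-1.51, SE 0.17, adjusted p = 1e-04), by -1.58 on slide 4 and -1.37 on slide 5. The late fall was 2.46-fold (-1.30, SE 0.09, adjusted p = 3e-05). Induced minus uninduced was under 2-fold at both passages, at -0.75 (adjusted p = 0.0047) at P1 and -0.43 (adjusted p = 0.015) in late CLiPs. P1 uninduced cells were 2.89-fold above fresh ones (adjusted p = 1.1e-05), a call lost with the mean of the Ezh2 probes (0.88) or the second-brightest probe (0.40). All 5 Ezh2 probes gave the same sign for the main changes: 1.80 to 3.04 from fresh to P1 day 0, -1.60 to -1.46 over 8 uninduced days at P1 and -1.63 to -1.30 in late CLiPs. They differed in sign for P1 induced against fresh, from -0.49 to 0.77. One of them, across chr6:47502445-47504139 (mm9, minus strand), and the window before the start (chr6:47595031-47595280, GRCm38.p6, minus strand), with CCAAT matches 90, 64 and 11 bases before it, were:

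Ezh2 probe: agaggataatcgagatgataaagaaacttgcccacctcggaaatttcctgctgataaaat

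Ezh2 promoter window: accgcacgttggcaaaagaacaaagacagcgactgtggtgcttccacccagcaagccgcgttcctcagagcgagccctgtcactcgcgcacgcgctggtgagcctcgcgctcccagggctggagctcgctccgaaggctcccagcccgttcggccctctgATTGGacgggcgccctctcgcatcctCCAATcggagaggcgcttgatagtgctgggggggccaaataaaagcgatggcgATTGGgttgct

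In that window ATTGG is CCAAT read on the other strand. The printed windows of Uhrf1, Hells and Ezh2 held 10, 28 and 23 CpG pairs, where the median window held 6 and the 90th percentile was 25.

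Ezh1, the PRC2 methyltransferase of resting cells, did not follow Ezh2. Its levels were 2.77, 3.30 and 3.17 on the fresh arrays, 2.92, 2.97 and 3.20 at P1 day 0, 3.68, 3.73 and 3.87 in P1 uninduced cells and 3.34, 3.62 and 3.56 in P1 induced cells. Fresh and day 0 arrays overlapped (difference -0.05, 95% interval -0.38 to 0.27), and both day 8 groups stood above them. The levels in late CLiPs were 3.14, 3.09 and 3.25 at day 0, 4.12, 4.08 and 4.15 in uninduced cells and 4.12 ± 0.099 (mean ± SD, n = 3) in induced cells, with both day 8 groups above day 0.

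The uninduced difference of Ezh1 was 0.73 at P1 (SE 0.15, adjusted p = 0.0033) and 0.96 in late CLiPs (SE 0.08, adjusted p = 7.9e-05), each under 2-fold. The late value passed 2-fold under quantile normalization (1.17) and without late day 0 replicate 3 (1.01). Late induced minus day 0 was 0.96 as well (adjusted p = 4.1e-05), and it passed 2-fold under quantile normalization (1.09), array weights (1.01) and slide as a fixed block (1.02). It also did so without late day 0 replicate 3 (1.01) or late induced replicate 3 (1.02). The other Ezh1 probes, well above background on all late day 0 and uninduced arrays, gave 0.38 and -0.05 for late uninduced minus day 0. For late induced minus day 0 they gave 0.07 and -0.15, the last with 1 induced array well above background. Across the 9 late arrays the levels of Ezh1 and Ezh2 had a Pearson r of -0.949, and across the 12 fresh and P1 arrays -0.177; these describe arrays of shared groups. The Ezh1 window held none of the 3 motifs, and 14 CpG pairs. Among members not yet described, Dnmt3b had the CHR letters 128 bases and Tet3 a CCAAT match 31 bases before the start. The windows of Dnmt3a, Tet1 and Tet2 held no match.

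Dnmt3a, a de novo methyltransferase, stayed within a range of about 1 log2 unit on its brightest probe. Its group means were -0.63 ± 0.32 in fresh hepatocytes, 0.23 ± 0.092 at P1 day 0, 0.36 ± 0.18 in P1 uninduced and -0.36 ± 0.30 in P1 induced cells (SD, n = 3). The late means were -0.07 ± 0.084 at day 0, 0.37 ± 0.24 uninduced and -0.08 ± 0.20 induced (SD, n = 3). No comparison called it. P1 day 0 minus fresh was 0.86 (SE 0.19, adjusted p = 0.0014), and P1 uninduced minus fresh was 0.99 (adjusted p = 0.00056), just under 2-fold. That value passed 2-fold without fresh replicate 1 (1.13), fresh replicate 3 (1.02), P1 uninduced replicate 1 (1.06) or P1 uninduced replicate 2 (1.02). Induced minus uninduced was -0.71 at P1 (adjusted p = 0.01) and -0.46 in late CLiPs (adjusted p = 0.067). A second Dnmt3a probe was well above background on all P1 day 0, P1 uninduced and late arrays, and on no fresh or P1 induced array. Its P1 induced mean was -1.05 from day 0 and -0.89 from uninduced, with no exact size since the induced signal was dim. Late induced minus uninduced was -0.54 on it. The remaining Dnmt3a probes were well above background on no array.

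Dnmt3b, the other de novo methyltransferase, could not be placed in fresh hepatocytes by its brightest probe. Its levels there were -2.31, 0.73 and 1.11, with replicate 1 far below the others, against -0.45, -0.39 and -0.82 at P1 day 0. It was -1.52, -0.81 and -1.38 in P1 uninduced cells, and -1.88, -1.84 and -1.86 in P1 induced cells. On this probe the fresh arrays surround all 3 of these groups. The P1 day 0 minus fresh difference was -0.40 (95% interval -1.93 to 1.14), and it was -1.47 and called without fresh replicate 1. P1 induced minus fresh was -1.70 (adjusted p = 0.047) with overlapping arrays, and the call was lost under several alternatives, for example without fresh replicate 2 (-1.26) or 3 (-1.07), without any 1 P1 induced array (-1.71 to -1.69) or with slide as a random block (-1.68). In late CLiPs the means were -1.23 ± 0.25, -1.16 ± 0.0077 and -1.37 ± 0.15 (SD, n = 3) at day 0, uninduced and induced, and no late comparison called it. A second Dnmt3b probe, well above background on all arrays, read -1.60, -0.41 and -0.38 on the fresh arrays. These overlapped P1 day 0 and stood above all P1 uninduced and induced arrays. Its differences from fresh were -1.01 at P1 day 0, -1.27 in P1 uninduced and -1.29 in P1 induced cells.

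The Tet1 probe chosen by brightness was high in fresh hepatocytes only. Its levels were 1.25, 1.80 and 1.86 there, and -2.41, -2.32 and -2.36 at P1 day 0. The P1 uninduced levels were -2.19, -2.33 and -2.57, the P1 induced levels -2.08, -2.02 and -1.81. No CLiP array came near the fresh ones, and late means lay between -2.79 and -2.61. P1 day 0 was 16.0-fold below fresh (SE 0.16 on the log2 scale, adjusted p = 2.6e-09), and P1 induced cells were 12.2-fold below (-3.61, adjusted p = 1.1e-08). Within CLiPs no comparison called it.

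The Tet1 result rests on that probe. It lies at chr10:62276042-62276101 (mm9, minus strand), and a second one at chr10:62301856-62301915 on the same strand. Their first 30 bases are shown because the first read a high signal in fresh hepatocytes and the other none above background:

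Tet1 brightest probe: gaatctacagacttctgtcccctgcaggct

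Tet1 other probe: taatcacatcaacgccgaggtcaggaatgc

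The other probe was well above background on no array in 5 of the 7 groups. A further probe was not well above background on any array of fresh hepatocytes or P1 day 0, so it gives no difference between them. On all late arrays it was well above background, with means of -3.41 at day 0, -2.62 uninduced and -2.63 induced. It thus did not show the higher fresh level of the brightest probe, though across scanners. Late uninduced minus day 0 was 0.80 on this probe and 0.18 on the brightest. With the mean of the 3 Tet1 probes, P1 day 0 minus fresh was -0.78 (adjusted p = 0.019) and not called. Of 5 tested endothelial markers, 4 also fell from fresh to P1 day 0, against 25.2% of all genes. The summed level of the 6 on the array was 3.39 to 4.11 on fresh arrays and -2.10 to -0.48 on CLiP arrays, with Kdr, Lyve1 and Tek not well above background there. The summed level of 7 Kupffer and macrophage markers was 3.13 to 4.87 in fresh hepatocytes, 1.79 to 1.91 at P1 day 0, 4.09 to 4.51 in P1 uninduced and 2.99 to 3.34 in P1 induced cells. It was 1.71 to 1.99, 2.89 to 3.68 and 2.03 to 2.18 in the late groups in that order. Of the 7, Clec4f, Cd5l, Adgre1 and Vsig4 were not well above background at P1, whereas Csf1r was 1.36 higher than fresh in P1 uninduced cells and Cd68 differed by -0.04 between P1 day 0 and fresh. Of 6 tested stellate and fibroblast markers, 4 rose from fresh to P1 day 0, against 25.4% of all genes, among them Reln by 3.73 and Col1a1 at least 20.1-fold. Dcn differed by -0.02 and Des by -0.95, neither called. Col1a1, Col3a1 and Pdgfrb entered the test only through CLiP groups, where they were high. The summed level of the 7 on the array was 1.84 to 3.34 on fresh arrays, 3.53 to 4.55 at P1 day 0, 2.84 to 5.34 in P1 uninduced and 5.53 to 6.64 in P1 induced cells. In P1 induced cells Dcn alone had a mean of 5.95, and Reln was at least 15.4-fold below P1 uninduced cells. The part of endothelial, macrophage, stellate and fibroblast cells in the Tet1 value was not tested.

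**Figure D2:**
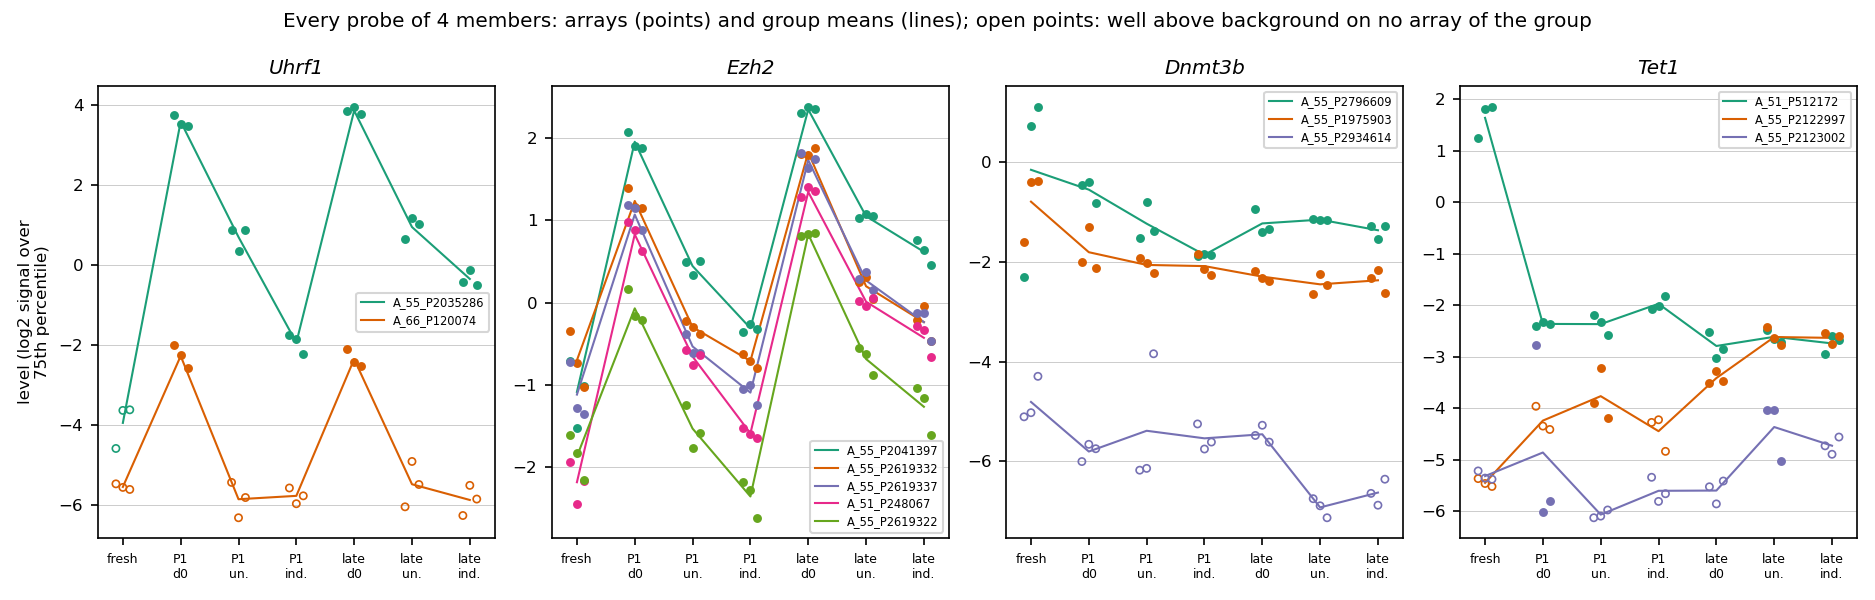
Level of every probe of Uhrf1, Ezh2, Dnmt3b and Tet1 on each array (points) with lines through the group means, as log2 signal over the array's 75th percentile across the 7 groups; open points mark groups in which the probe was well above background on no array. The 5 Ezh2 probes all rise from fresh to day 0 and fall to uninduced day 8, whereas of the 3 Tet1 probes only the brightest is high in fresh hepatocytes.

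Tet2 and Tet3 were called in no comparison. Tet2 means were 0.56 in fresh hepatocytes, 0.23, 0.65 and 0.26 at P1 day 0, uninduced and induced, and 0.65, 1.05 and 1.18 in late CLiPs at the same stages. Uninduced minus day 0 was 0.42 at P1 (adjusted p = 0.043) and 0.41 in late CLiPs (adjusted p = 0.023). Tet3 was highest in fresh hepatocytes (-0.71, -0.91 and -0.68) and did not overlap P1 day 0 (-1.60, -1.58 and -1.63), with a difference of -0.84 (SE 0.11, adjusted p = 3.1e-05). P1 uninduced minus fresh was -0.92 and passed 2-fold under quantile normalization (-1.04), median scaling (-1.14) and, just past it, without P1 uninduced replicate 1. Induced minus uninduced was 0.56 at P1 (adjusted p = 0.0017) and 0.42 in late CLiPs (adjusted p = 0.04). On this brightest Tet3 probe all 3 induced arrays stood above all 3 uninduced arrays at both passages. The other Tet3 probe, well above background on 2 or 3 arrays of every group, did not show these differences. It gave -0.08 for P1 day 0 minus fresh, and 0.07 at P1 and 0.0065 in late CLiPs for induced minus uninduced.

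**Figure D3:**
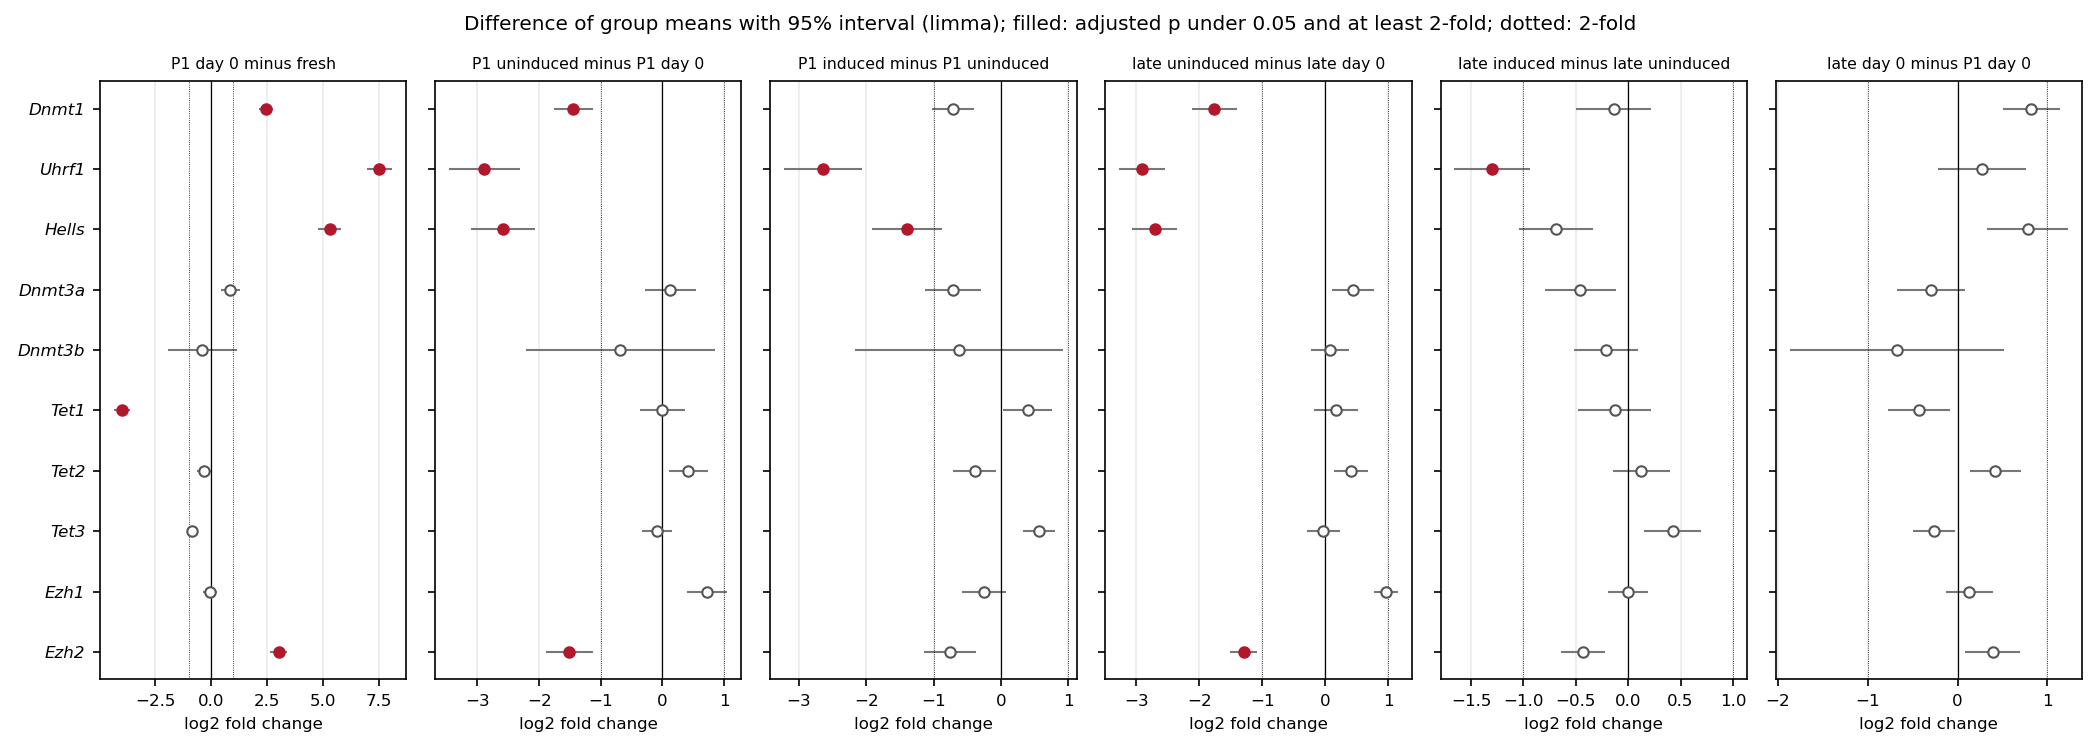
Log2 difference of each of the 10 genes in 6 comparisons (points, filled where called) with its 95% confidence interval from limma (bars); dotted lines mark 2-fold, and each panel has its own scale. Uhrf1, Hells, Ezh2 and Dnmt1 lie above 0 for P1 day 0 against fresh and below 0 for uninduced day 8 against day 0 at both passages.

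Between late and P1 CLiPs at day 0, none of the 10 genes was called, against 4.33% of 22353 genes higher and 9.11% lower; 6 had an unadjusted p under 0.05. Dnmt1 was 0.82 higher in late CLiPs (adjusted p = 0.00052), and 1.04 and called under median scaling. Hells differed by 0.78 (adjusted p = 0.009), Tet2 by 0.42 (adjusted p = 0.022) and Ezh2 by 0.39 (adjusted p = 0.045), all under 2-fold and read on different scanners. Markers of other cells differed between these groups too. The summed stellate and fibroblast level was 3.53 to 4.55 at P1 day 0 and -2.50 to -1.53 at late day 0, with 5 of 6 tested markers lower, among them Reln by -5.77 and Dcn at least 139-fold. Of 6 biliary and progenitor markers, Epcam (-4.90) and Krt7 (-4.02) were lower in late CLiPs, and the others were not called. The summed level of the hepatocyte markers was 8.74 to 9.24 at P1 day 0 and 5.20 to 6.13 at late day 0. The part of these cells in the late differences was not tested. The uninduced change did not differ between passages by limma's test for any of the 10 (0 called and 0 at an unadjusted p under 0.05, against 1.74% of genes higher and 1.11% lower). For Uhrf1 that difference was -0.03, with a 95% interval of -0.72 to 0.67, and for Dnmt1 -0.32, with an interval of -0.77 to 0.13.

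The effect of induction differed between passages for 1 gene, Uhrf1, where 4.73% of genes were called higher and 5.21% lower. Its fall with induction was smaller in late CLiPs by 1.34 on the log2 scale (SE 0.33, 95% interval 0.65 to 2.03, adjusted p = 0.0083). It was 0.98 and under 2-fold with normexp background, and 0.43 (adjusted p = 0.4) with the mean of its probes. The differences for Hells (0.71, adjusted p = 0.12), Dnmt1 (0.58, adjusted p = 0.072) and Ezh2 (0.32, adjusted p = 0.32) had the same sign and did not pass the threshold.

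The 4 genes that moved together did so beside genes of the cell cycle. Of 21 tested S phase genes, 19 rose from fresh to P1 day 0 (median 2.86), all 21 fell over 8 uninduced days at P1 (median -1.97), and all 22 tested fell in late CLiPs (median -2.11, and -1.96 with Ccne2 at its bound). The median of all tested genes lay between -0.0389 and 0.0601 over the comparisons made. Of all genes, 25.4% were called higher from fresh to P1 day 0. Over the uninduced days 4.86% were called lower at P1 and 6.37% in late CLiPs. Pcna, the replication clamp that also binds Dnmt1, changed by 2.04, -1.48 and -1.53 in these comparisons. Of 14 G2 and M phase genes, 14 rose from fresh to P1 day 0 (fitted median 5.43, and 5.22 with the 4 that were well above background on no fresh array, Bub1b, Aurkb, Kif11 and Nusap1, at their bounds) and 14 fell over 8 uninduced days at P1 (median -3.42) and in late CLiPs (median -3.01). Mki67, a proliferation marker, changed by 6.05, -3.60 and -2.86.

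With induction parts of the cell cycle lists also fell, where 9.02% of all genes were called lower and 9.68% higher at P1. At P1, 7 of 21 S phase genes were lower than in uninduced cells (Mcm5 -2.42, Pole -2.34 and Mcm3 -2.10) and 1, Rrm2, was higher (1.65), while 13 of 14 G2 and M phase genes were lower (fitted median -1.72, and -1.47 with 4 at their bounds). In late CLiPs 2 of 22 S phase genes (Mcm5 -1.36 and Pole -1.25) and 9 of 14 G2 and M phase genes were lower, against 3.06% of all genes. The induction effect differed between passages for 3 S phase genes (Mcm3 1.12, Pole 1.09 and Mcm5 1.06), with the sign of the Uhrf1 difference, and for no G2 or M phase gene, of which 3 had an unadjusted p under 0.05. Of all genes, 4.73% were called higher and 5.21% lower for that difference. The summed S phase level was 5.60 to 5.84 on fresh, 8.24 to 8.41 on P1 day 0, 6.17 to 6.58 on P1 uninduced and 5.66 to 5.98 on P1 induced arrays. It was 8.37 to 8.60, 6.46 to 6.76 and 6.35 to 6.38 on the late arrays at the same stages. The part of cell division in the levels of the 4 genes was not tested.

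**Figure D4:**
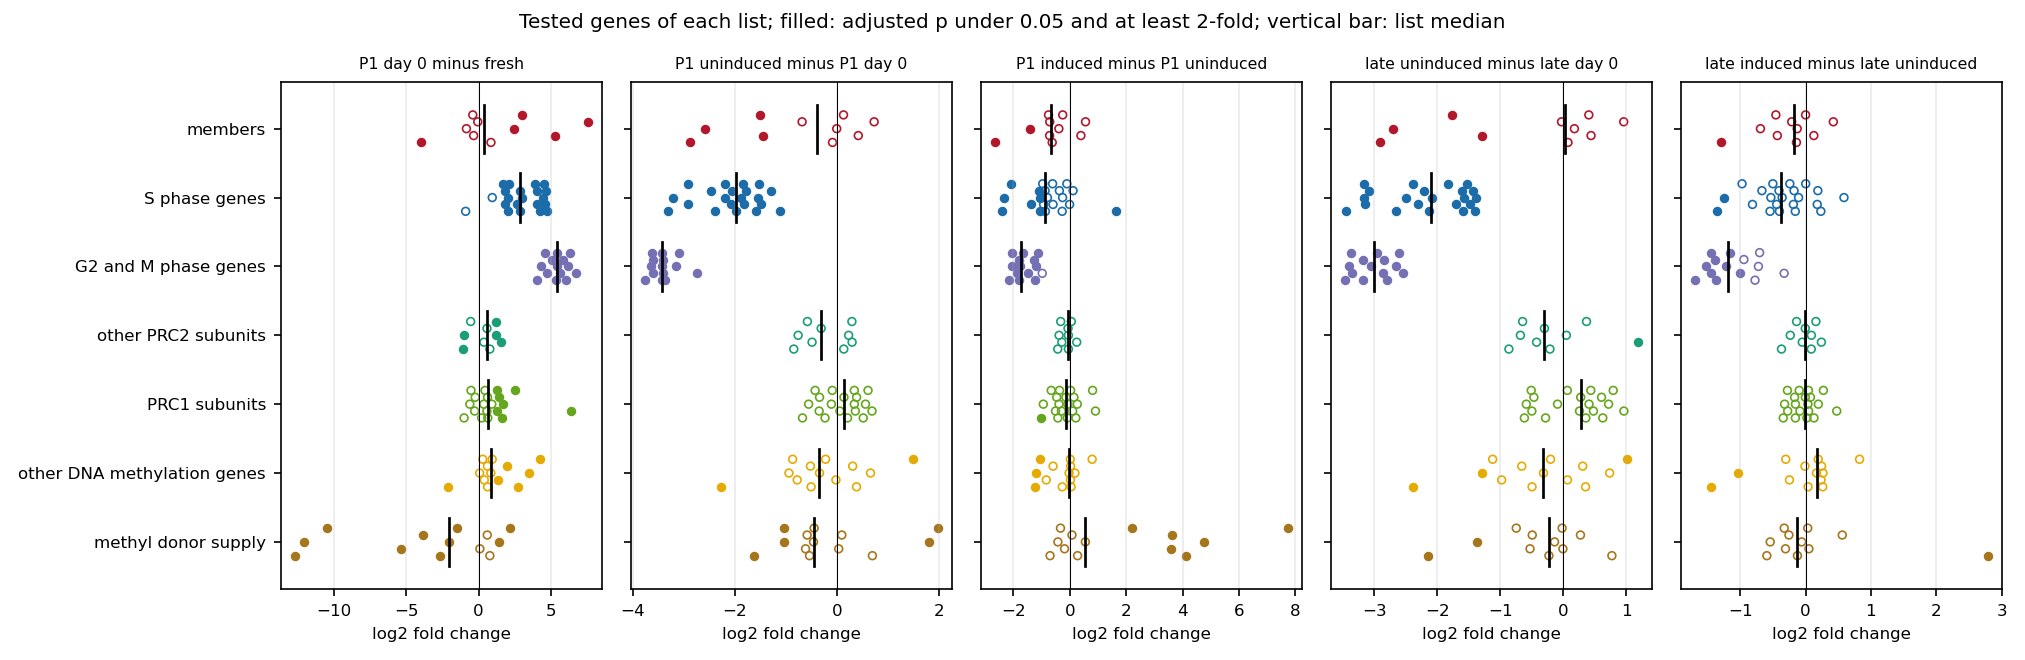
Log2 differences of the genes of each list (points, filled where called) in 5 comparisons, with the list's median (bar) and a scale per panel. The S phase and G2 and M phase lists lie mostly above 0 for P1 day 0 against fresh and below 0 for uninduced day 8 against day 0, whereas the medians of the other PRC2 and the PRC1 subunits lie between -0.31 and 0.62.

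Among genes whose levels ran most like each member's over the 12 fresh and P1 arrays (13979 candidates), Pearson's r was highest with Sgol1 for Dnmt1 (0.992), Dnajc9 for Uhrf1 (0.996), Fam64a for Hells (0.991) and Haus6 for Ezh2 (0.997). The next were Aurkb for Dnmt1 (0.988), Atp1b3 for Uhrf1 (0.996), Exo1 for Hells (0.991) and Cdk1 for Ezh2 (0.993). For Tet1 they were Cyp4a10 (0.997) and Prb1 (0.996), for Tet3 Wdr38 (0.978) and for Ezh1 Mfsd9 (0.976). Likeness was lower for Dnmt3a (Dvl2, 0.961), Dnmt3b (Gfod2, 0.954) and Tet2 (Prpf6, 0.900). Among the members, Uhrf1 and Hells had an r of 0.985 in the 12 arrays and 0.985 in the 9 late arrays, and Uhrf1 and Ezh2 0.968 and 0.991. These values describe arrays that share groups.

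Other subunits of PRC2 had smaller differences than Ezh2. Of 9 tested, 3 rose from fresh to P1 day 0 (Mtf2 1.53, Suz12 1.23 and Rbbp7 1.21) and 2 fell (Phf19 -1.09 and Jarid2 -1.01), with a median of 0.58; these counts are near the 25.4% and 25.2% of all genes called. The core subunit Eed differed by 0.78 (adjusted p = 0.00062), under 2-fold. Over 8 uninduced days at P1 limma called none, with 6 at an unadjusted p under 0.05 and values of -0.76 for Suz12, -0.49 for Eed and -0.84 for Rbbp7. In late CLiPs Jarid2, an accessory subunit, rose by 1.18, and Suz12 differed by -0.65 and Eed by -0.42. With induction limma called none at P1 (3 at an unadjusted p under 0.05) or in late CLiPs (2 at that p).

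PRC1, the complex that ubiquitinates histone H2A, differed mainly between fresh hepatocytes and CLiPs. Of 19 subunits, 7 rose from fresh to P1 day 0 and none fell, against 25.4% and 25.2% of all genes, and the median was 0.62; Cbx6 (6.42), Phc2 (2.50), Pcgf3 (1.63) and Cbx8 (1.43) had the largest measured differences. Over 8 uninduced days limma called none at P1 or in late CLiPs, with 9 and 13 at an unadjusted p under 0.05. Cbx6, a chromatin-reading subunit, was lower by -1.03 with induction at P1. Of 6 enzymes and cofactors that remove the marks of PRC2 or PRC1 (Kdm6a, Kdm6b, Bap1, Usp16, Asxl1 and Asxl2), limma called none in any comparison; 4 had an unadjusted p under 0.05 for P1 day 0 against fresh.

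Of 13 other tested genes of DNA methylation, 5 rose from fresh to P1 day 0 and 1 fell (Dnmt3l, -2.10), against 25.4% and 25.2% of all genes. Those that rose included Cdca7, the partner of Hells (3.52), Mbd1 (2.00) and Trim28 (1.35). Zfp57 and Mbd4 rose at least 4.98-fold and 2.20-fold from below background. Cdca7 then fell by -2.27 over 8 uninduced days at P1 and -2.38 in late CLiPs, and was lower with induction by -1.23 and -1.45. Zbtb4, a reader of methylated DNA, rose over the uninduced days by 1.49 at P1 and 1.02 in late CLiPs. Late against P1 day 0 gave Mbd1 -1.67 and Zfp57 -1.02, across scanners.

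Of 9 tested demethylation genes and TET partners, 2 rose from fresh to P1 day 0 (Tdg 1.81 and Gadd45b 1.49) and 3 fell (Apobec1 -1.73, Gadd45g -1.28 and Cxxc5 -1.07), with a median of -0.54 and shares near those of all genes (25.4% and 25.2%). Tdg, the glycosylase that excises oxidised methylcytosine, thus moved opposite to the brightest Tet1 probe. With induction at P1, 3 rose (Apobec1 2.46, Gadd45g 1.67 and Gadd45a 1.63) and Gadd45b fell by -1.94, against 9.68% and 9.02% of all genes. In late CLiPs 1 rose (Gadd45g 1.36), against 2.94%. The induction effect differed between passages for Gadd45b (1.82), Apobec1 (-2.48) and Gadd45a (-2.23), where 4.73% of all genes were called higher and 5.21% lower.

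Genes that supply the methyl donor S-adenosylmethionine, which every methyltransferase here uses, fell in culture. Of 13 tested, 8 fell from fresh to P1 day 0 and 2 rose (median -2.07), against 25.2% and 25.4% of all genes. Gnmt, which consumes the donor in hepatocytes, fell by -10.51 and Ahcy, which clears its product, by -3.85. Mat1a, the donor's synthetic enzyme in adult liver, fell at least 2310-fold to below background, and Mat2a, the form of growing cells, rose by 1.40. With induction at P1, 6 of 13 rose and none fell, against 9.68% and 9.02% of all genes. Among those that rose were Mat1a (4.77), Bhmt (7.73), Nnmt (4.13) and Ahcy (3.61), and Mat2a differed by -0.42 (adjusted p = 0.058). P1 induced cells were still below fresh hepatocytes for Mat1a (-5.32) and Gnmt (-7.47). In late CLiPs induction raised 1 of 11 tested (Ahcy 2.79), against 2.94% of all genes, and Mat1a was not tested there. The induction effect differed between passages for 5 genes, all smaller in late CLiPs, where 5.21% of all genes were called lower and 4.73% higher. Hepatocyte markers moved alongside, with a summed level of 11.4 to 11.6 on fresh arrays, 8.74 to 9.24 at P1 day 0, 8.52 to 8.74 uninduced and 9.34 to 9.65 induced at P1.

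Of 9 genes that make or use 2-oxoglutarate, the cofactor of the TET enzymes, 5 fell from fresh to P1 day 0 (among them Idh1 -2.42 and Idh3b -2.18) and none rose, against 25.2% lower and 25.4% higher of all genes. Idh1 rose with induction by 1.56 at P1 and 1.28 in late CLiPs.

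Genes known as targets of these marks were tested only in part, since many were near background. Of 12 germline genes kept silent by DNA methylation, 3 were tested in the fresh and P1 arrays. Asz1 was at least 6.07-fold and Ddx4 at least 2.37-fold higher in P1 uninduced cells than at day 0, but both entered the test only through the uninduced group, where they were high. Asz1 was not well above background in any late group, and Ddx4, measured on all late day 0 and uninduced arrays, rose by 1.78 there. Of 16 Polycomb targets, 10 were tested, and 5 rose and 3 fell from fresh to P1 day 0, against 25.4% and 25.2% of all genes. On the fresh arrays 10 of the 16, Cdkn2a and Cdkn2b among them, were never well above background. Those of them that were tested entered only through CLiP groups, where they were high, so the count of 5 is partly set by the filter. Cdkn2a, which encodes cell cycle inhibitors, rose at least 231-fold and Cdkn2b at least 329-fold from below background. Cdkn2a rose by a further 1.05 over 8 uninduced days at P1, was lower with induction by -2.56 at P1 and differed by -0.65 (adjusted p = 0.19) in late CLiPs. The induction effect on Cdkn2a differed between passages by 1.90 (adjusted p = 0.001).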

How the data were processed

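The members were matched by gene name in the scanner files, and members and gene lists were chosen with earlier results of these data known. Column-purified RNA was amplified with the incorporation of Cy3 and hybridised to Agilent arrays, 1 sample per array, per the labels' protocols. The deposited intensity is the scanner software's processed signal, background-subtracted, with probe positions on mm9 per the file headers. The authors also deposited log2 tables. The first was this signal on the log2 scale minus an array constant, and the second was also centred per probe; their column medians were -3.56 to -3.21 and -0.0323 to 0.113, and they served as an alternative.

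Here log2 signal minus each array's 75th percentile was averaged over a probe's spots, and each gene was read from its brightest probe. A gene was tested when well above background on all arrays of at least 1 group. Genes dim on all fresh arrays, such as Uhrf1 and Hells, thus entered only through CLiP groups. limma 3.58.1 in R 4.3.3 (lmFit, eBayes, Benjamini-Hochberg over all tested genes) was fitted to the 12 fresh and P1 arrays, to the 9 late arrays, and to all 21 for contrasts between passages, since spread may differ between scanners. The number of arrays, 3 per group, limits the precision. Promoter windows, 250 bases before each start, are from RefSeq (GRCm38.p6), and all 10 members matched. Named genes were all members, up to 4 called genes per list and comparison with the largest difference measured on all arrays, and fixed defining genes. Of the 3 genes of highest correlation with each member, the first 1 or 2 were named. Bounded genes were named in addition after their values were seen.

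On simulated data, of 100 genes changed by 1.5 on the log2 scale, the contrast of P1 day 0 with fresh recovered 94 and the difference in induction effect between passages 88. The changed genes were drawn from those well above background on all arrays of the fit. These rates therefore do not cover genes dim on fresh arrays, such as Uhrf1 and Hells. Same-numbered arrays deviated together between P1 day 0 and uninduced (r = 0.23, 0.18 and 0.41) and in all late pairs (0.25 to 0.53). For replicates 1, 2 and 3 the values were 0.27, 0.069 and 0.28 between P1 uninduced and induced. Between P1 day 0 and induced they were 0.13, -0.115 and 0.25, and between fresh and P1 day 0 0.0086, -0.00129 and 0.024. P1 arrays of 1 number shared a slide except replicate 2, whose induced array lay on slide 5 and the others on slide 4. Arrays of different numbers were not compared, so pairing of samples cannot be told apart from a shared slide. In late CLiPs it cannot be told apart from passage. Alternatives were other scalings and backgrounds, filters on dim probes, probe choices, blocks for slide and replicate, array weights and leaving out each array.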

Additional observations from a re-analysis of the deposited data

Results flagged for a closer look

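The effect of hepatic induction on Uhrf1 differed between passages by limma's test of the difference itself. Induced minus uninduced was -2.64 on the log2 scale at P1 and -1.30 in late CLiPs, lower in every induced array than in every uninduced array at both passages, and the late effect was smaller by 1.34 (adjusted p = 0.0083). The value was 0.98 with normexp background and 0.43 with the mean of the Uhrf1 probes. It was -0.48 with the second probe, which was not well above background at day 8. Scanner and passage cannot be told apart here, although each effect was measured within 1 scanner.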

How the results depend on the processing

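Of 2389 values of the 10 genes under other settings, 2331 kept their direction and their side of the thresholds, 26 lost a call, 27 gained one and 5 changed sign; 93 of those counted as kept changed sign without being called in either setting. The 5 sign changes were Uhrf1 with its second-brightest probe (a setting chosen after seeing the data) for P1 induced against uninduced (0.085), P1 induced against fresh (-0.22), P1 uninduced against fresh (-0.31) and the induction effect (-0.48), and Hells for P1 induced against fresh under normexp background (-0.10); the probes concerned were not well above background there, and the cause was not tested further. The number of called members differed by over 1.5 times as follows. A strict filter, which kept only genes well above background on all arrays and so tested fewer genes, gave 3 for P1 day 0 against fresh, 2 for P1 uninduced against day 0, 0 for P1 induced against uninduced, 2 for P1 induced against fresh, 0 for the induction effect, 2 for P1 induced against day 0 and 3 for P1 uninduced against fresh. Normexp background gave 1, 2 and 0 for P1 induced against uninduced, P1 induced against fresh and the induction effect. The mean of probes gave 2 for P1 induced against fresh, 0 for late induced against uninduced and 0 for the induction effect. The second probe gave 1 for P1 induced against uninduced, 2 for P1 induced against fresh, 0 for late induced against uninduced, 0 for the induction effect and 3 for P1 uninduced against fresh. Fitting only the groups compared gave 2 for P1 induced against fresh, and median scaling 1 for late against P1 day 0. Leaving out 1 array gave 5 to 6 members for P1 day 0 against fresh, 3 to 4 for P1 induced against fresh, 5 to 6 for P1 uninduced against fresh and 4 to 5 for both late comparisons with day 0, and the main count elsewhere.

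The replicate block, which pairs arrays of 1 number, changed no call of a member: 5 for P1 day 0 against fresh, 4 over the uninduced days at P1 and 4 in late CLiPs, 2 and 1 for induction at P1 and late. Of all genes, the strict filter called 6550 of 10442 for P1 day 0 against fresh, 1062 of 2298 for P1 uninduced against day 0, 1937 of 3857 for P1 induced against uninduced, 4611 of 8068 for P1 induced against fresh, 2605 of 4737 for P1 induced against day 0, 6169 of 10117 for P1 uninduced against fresh, 1142 of 3004 for late against P1 day 0, 265 of 637 for the uninduced change and 1070 of 2221 for the induction effect. For late against P1 day 0, no filter gave 7423 and normexp 1981, and array weights gave 1022 for the uninduced change. Other scalings moved the median of all genes by at most 0.23 in size on the log2 scale (-0.233, median scaling, P1 induced against fresh). Slide could not be a fixed block for fresh arrays or between passages, and the authors' tables could not be used between passages; depth limits the genes of probes near background (Hells, Uhrf1 and Tet1 above all).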
